A study of Mus musculus with 3 samples.

Results

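Transcripts of 9 genes of the hepatocyte growth factor (HGF), MET and urokinase system were examined in satellite cells, which are the stem cells that reside in skeletal muscle. The genes were chosen by symbol and are Hgf, Met, Gab1, Spint1, Spint2, Plau, Plat, Plaur and Serpine2. All 9 have a row among the 20308 gene symbols of the deposited table. ZsGreen-positive cells were sorted, after digestion of hindlimb muscle, from Pax7-ZsGreen mice aged 3 months, in which the fluorescent protein reports the satellite cell factor Pax7. About 200000 cells per sample were collected from muscle of several animals pooled together. The sample labels give the tissue as tibialis anterior, one of the hindlimb muscles. The 3 libraries (replicates 1 to 3) form 1 group with no treatment and no second condition, so the comparisons are between genes and between libraries. Whether each library had its own pool of animals is not stated, and the spread between them may be technical.

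HGF is secreted as an inactive single chain that resembles plasminogen and becomes active when a serine protease cuts it. Active HGF binds MET, a receptor tyrosine kinase that passes its signal through the docking protein GAB1, and HGF is known as a signal that brings quiescent satellite cells into the cell cycle. Urokinase and tissue plasminogen activator turn plasminogen into plasmin, a protease that degrades matrix around moving cells, and urokinase has also been reported to cut the HGF precursor.

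The sorted cells carried transcripts of the receptor MET, of its docking protein and of the urokinase arm, while the ligand gene and both Kunitz inhibitor genes were listed at or close to 0. Levels are in TPM (a transcript's share of all measured transcripts after correction for length, scaled to a fixed total). Of the 9 genes, 7 were above 0 in some library and could be tested. Among these 7, the 6 genes Plau, Plaur, Plat, Serpine2, Met and Gab1 lay above 1 TPM in the moderated test of limma (adjusted p over 12822 genes, Benjamini-Hochberg). That test called 60.8% of all genes tested above 1 TPM, so a call alone does not set these genes apart. It called 2.18% of the genes tested below 1 TPM, and 0 of the 7 members tested were among them. At an unadjusted p under 0.05 Spint2 was on the low side, with an adjusted p of 0.0565. The remaining 2, Hgf and Spint1, were listed at 0 in all 3 libraries. They were not tested and so could not be called below. The median of the 9 gene means was 60.3 TPM, beside 2.24 TPM over all genes in the table and 11.5 TPM over those tested.

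**Figure D1:**
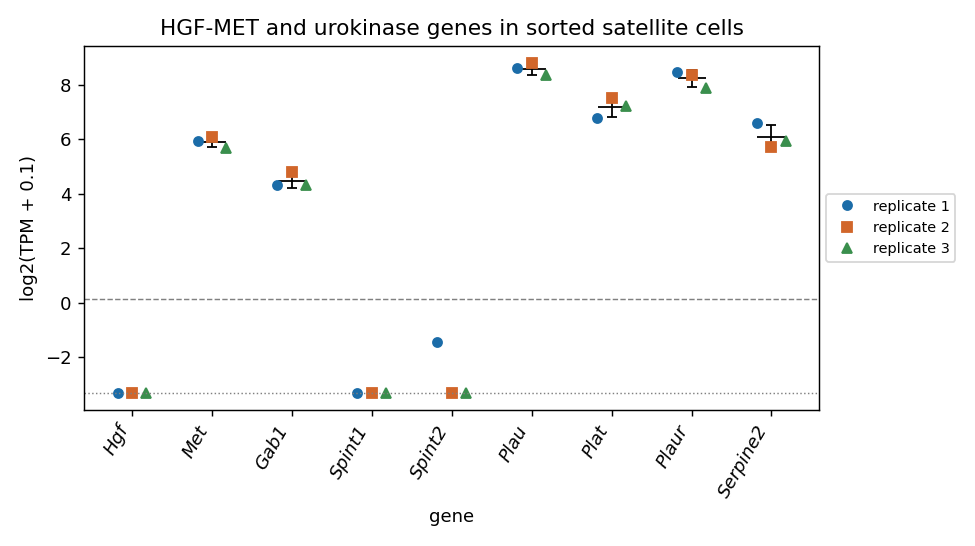
Level of each of the 9 genes on the log2(TPM + 0.1) scale (vertical axis), with 1 symbol per library. For genes above 0 in every library the black tick and bar give the mean and SD of the 3 libraries; the dashed line marks 1 TPM and the dotted line the value of a gene listed at 0. Hgf and Spint1 sit on the dotted line in every library, Spint2 is on it in 2 libraries, and the other 6 genes are far above the dashed line.

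A gene listed at 0 in this table cannot be read as absent. The values keep no read totals, so sequencing depth is unknown and no detection limit can be given. The table also lists the ribosomal protein gene Rps27, which every cell uses, at 0 in all 3 libraries.

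The ligand gene Hgf (chromosome 5, 16553495 to 16620152, plus strand, GRCm38) was listed at 0 in replicates 1, 2 and 3. No 31-base word of its longest annotated transcript occurs in a transcript of another gene, and the overlapping annotated loci are Gm43489 and Gm42975 on its own strand. Its paralogue Mst1, which encodes macrophage stimulating protein, the ligand of the related receptor RON, was listed at 0, 0.31 and 0 TPM. Neither ligand gene was listed above 0.31 TPM in any library.

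The receptor gene Met (chromosome 6, 17463800 to 17573980, plus strand) was measured at 61.5, 67.7 and 51.6 TPM in replicates 1 to 3. The 3 libraries lay close together, with replicate 2 highest and replicate 3 lowest. The mean was 60.3 ± 8.15 TPM (SD, n = 3), which placed Met above 81.4% of the genes that were above 0 in some library. On the log2(TPM + 0.1) scale it lay 5.77 above 1 TPM (limma adjusted p = 4.58e-10). The gene for the related receptor RON, Mst1r, was listed at 0, 0.31 and 0 TPM, so of the receptor pair transcripts of Met were the abundant ones in all 3 libraries. No ratio is given for Met over Hgf or for Met over Mst1r because the second gene of each was listed at 0 in at least 1 library.

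The docking protein gene Gab1 (chromosome 8, 80764438 to 80880519, minus strand) was at 19.9, 27.5 and 19.7 TPM. Its mean of 22.4 ± 4.46 TPM (SD, n = 3) was the lowest of the 6 genes called above 1 TPM (limma adjusted p = 2.78e-07). It has an antisense neighbour, Gm31105, and an overlapping pseudogene, Gm7997, on the opposite strand, and whether the counting used strand is not given in the sources used here. Gab1 and its paralogue Gab2, at 15.6, 17.4 and 22.5 TPM, could not be ordered. Gab1 was the higher in replicates 1 and 2 and the lower in replicate 3, with a mean log2 ratio of 0.27 ± 0.43 (SD, n = 3, exact sign-flip permutation p = 0.5, two-sided). Grb2, the adaptor that links GAB1 to MET and to RAS activation, was at 152, 132 and 212 TPM. Gab1 was below Grb2 in 3 of 3 libraries, by a log2 ratio of -2.87 ± 0.58 (SD, n = 3, exact sign-flip permutation p = 0.25). With 3 libraries 0.25 is the smallest p that this test allows, so no ratio between genes could pass a threshold of 0.05.

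The inhibitor genes of the HGF-activating proteases were the other low members. Spint1 (chromosome 2, 119237362 to 119249527, plus strand) encodes HAI-1, a membrane-bound Kunitz-type inhibitor of HGF activator and matriptase, and was listed at 0 in all 3 libraries. Spint2 (chromosome 7, 29256323 to 29281912, minus strand) encodes the related inhibitor HAI-2 and was at 0.27, 0 and 0 TPM. Neither shares a 31-base word with transcripts of another gene. Both are known from epithelia, so epithelial markers were read beside them. Of 8 epithelial markers 6 could be tested. Of these 0 were called above 1 TPM by limma and 6 were not decided, beside 60.8% of all genes tested called above. Epcam and Cldn7 were listed at 0 in every library, and the 8 markers summed to 3.31, 3.86 and 4.92 TPM in replicates 1 to 3. The relation of these markers to the levels of Spint1 and Spint2 was not tested.

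Around the ligand, most genes of HGF activation were listed at 0. Of 13 genes of proteases that activate HGF, related proteases and their inhibitors, 2 were called above 1 TPM by limma and 10 stood at 0 throughout, for a list median of 0 TPM. Of all symbols in the table, 36.9% were listed at 0 in every library. The 10 were Hgfac (HGF activator), St14 (matriptase), Tmprss2, Tmprss13, Prss8, Klkb1, F11, F12, Serpinc1 and Serpina5. Hpn, the gene of hepsin, another protease that activates HGF, was at 0, 2.57 and 0 TPM. The 2 above were the Kunitz-type inhibitor genes Tfpi at 10.4, 55.2 and 35.0 TPM and Tfpi2 at 9.96, 34.0 and 24.3 TPM, both lowest in replicate 1. TFPI is an inhibitor of the tissue factor pathway, and TFPI2 is an inhibitor of plasmin.

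The urokinase genes stood highest of the 9. Plau (chromosome 14, 20836660 to 20843385, plus strand), which encodes urokinase, was at 391, 449 and 327 TPM. Its mean of 389 ± 61.1 TPM (SD, n = 3) ranked 436 in the table (limma adjusted p = 1.76e-12). Plaur (chromosome 7, 24462484 to 24475968, plus strand), which encodes the lipid-anchored urokinase receptor, was at 353, 333 and 234 TPM. Its mean was 307 ± 63.5 TPM (SD, n = 3) at rank 539 (limma adjusted p = 6.95e-12). For both genes replicate 3 was the lowest library, and the ranges of the genes overlapped across libraries. Within each library, however, Plaur was below Plau, with a log2 ratio of -0.35 ± 0.18 (SD, n = 3, lower in 3 of 3 libraries, exact sign-flip permutation p = 0.25). The urokinase receptor gene exceeded the HGF receptor gene: the ratio of Plaur over Met was 5.74, 4.90 and 4.54 in replicates 1 to 3 (mean log2 ratio 2.33 ± 0.17, SD, n = 3, exact sign-flip permutation p = 0.25).

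Plat (chromosome 8, 22757727 to 22782844, plus strand), which encodes tissue plasminogen activator, was at 110, 182 and 148 TPM. Here replicate 1 was the lowest and replicate 2 the highest, and every value lay below every value of Plau. The mean was 147 ± 35.7 TPM (SD, n = 3, limma adjusted p = 5.59e-11). Plau exceeded Plat in 3 of 3 libraries, by a log2 ratio of 1.42 ± 0.36 (SD, n = 3, exact sign-flip permutation p = 0.25), and held 78.0%, 71.2% and 68.8% of their summed TPM in replicates 1 to 3. Endothelial cells are a known source of tissue plasminogen activator. All 10 endothelial markers, Pecam1 at 27.7, 32.5 and 61.2 TPM among them, were above 1 TPM (limma), beside 60.8% of all genes tested. The 10 markers summed to 1946, 1589 and 2901 TPM in replicates 1 to 3. Most of that sum is Fabp4, and the other 9 summed to 196.5, 233 and 314 TPM, lowest in replicate 1, where Plat was also lowest. Of the 10 markers, 4 were lowest in replicate 1, 4 in replicate 2 and 2 in replicate 3. In replicate 3, 6 of the 10 were highest, while Plat was highest in replicate 2. Their part in the Plat level was not tested. In a bulk sample, fewer cells of a type and less RNA per cell cannot be told apart.

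Serpine2 (chromosome 1, 79794197 to 79861180, minus strand) encodes protease nexin-1, which inhibits thrombin and both plasminogen activators. It was at 95.8, 52.4 and 60.4 TPM, with replicate 1 well above the others. The mean was 69.5 ± 23.1 TPM (SD, n = 3, limma adjusted p = 1.36e-09), and 2.71% of its 31-base words occur in transcripts of other genes. Serpine2 was below Plau in 3 of 3 libraries (log2 ratio -2.52 ± 0.54, SD, n = 3, exact sign-flip permutation p = 0.25). It was also below Plat in 3 of 3 libraries, but unevenly, with log2 ratios of -0.20, -1.79 and -1.30 in replicates 1 to 3. Among markers of fibro-adipogenic progenitors, another cell type of muscle, 6 of 12 were highest in replicate 1, as Serpine2 was, 4 in replicate 2 and 2 in replicate 3. Pdgfra, at 4.98, 0.11 and 0.06 TPM, was among the 6, while Ly6a, at 23.4, 41.2 and 36.2 TPM, was lowest in replicate 1. Of the 12 markers 8 were above 1 TPM (limma), beside 60.8% of all genes tested. The summed level of the 12 markers was 1697, 1704 and 1561 TPM. Their part in the Serpine2 level was not tested.

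**Figure D2:**
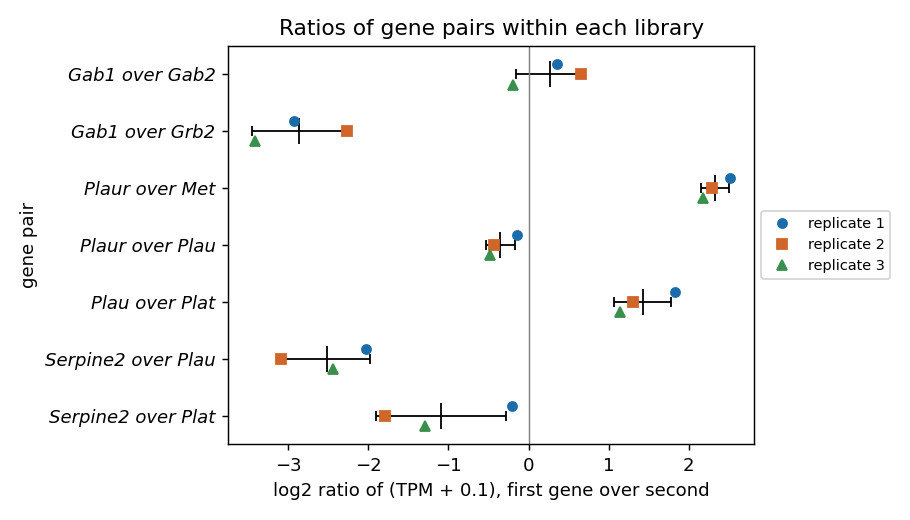
Log2 ratio of (TPM + 0.1) of the first gene over the second (horizontal axis) for 7 pairs in which both genes were above 0 in every library, with 1 symbol per library and the mean and SD as black tick and bar. The ratios of Gab1 over Gab2 fall on both sides of 0, and each other pair keeps 1 side in all 3 libraries; Serpine2 over Plat has the widest spread.

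In order of mean level the members ran Plau, Plaur, Plat, Serpine2, Met and Gab1. Serpine2 and Met, neighbours in that order, did not differ beyond their spread: Serpine2 was the higher in replicates 1 and 3 and the lower in replicate 2, with a mean log2 difference of 0.165 ± 0.507 (SD, n = 3). Each other pair of neighbours kept its order in 3 of 3 libraries with a mean difference larger than its SD. The step from Met to Gab1 was the most even one, at 1.44 ± 0.17 on the log2 scale for Met minus Gab1.

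The libraries did not shift all members together. Met, Gab1, Plau and Plaur were lowest in replicate 3, Plat was lowest in replicate 1 and Serpine2 in replicate 2. The SD of log2(TPM + 0.1) was 0.199 for Met and 0.274 for Gab1, against medians of 0.318 and 0.483 over the 500 genes nearest to each in level. The SD was larger than that median for Plau (0.229 against 0.151), Plaur (0.32 against 0.162), Plat (0.362 against 0.198) and Serpine2 (0.454 against 0.287). These are descriptions of 3 libraries.

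**Figure D3:**
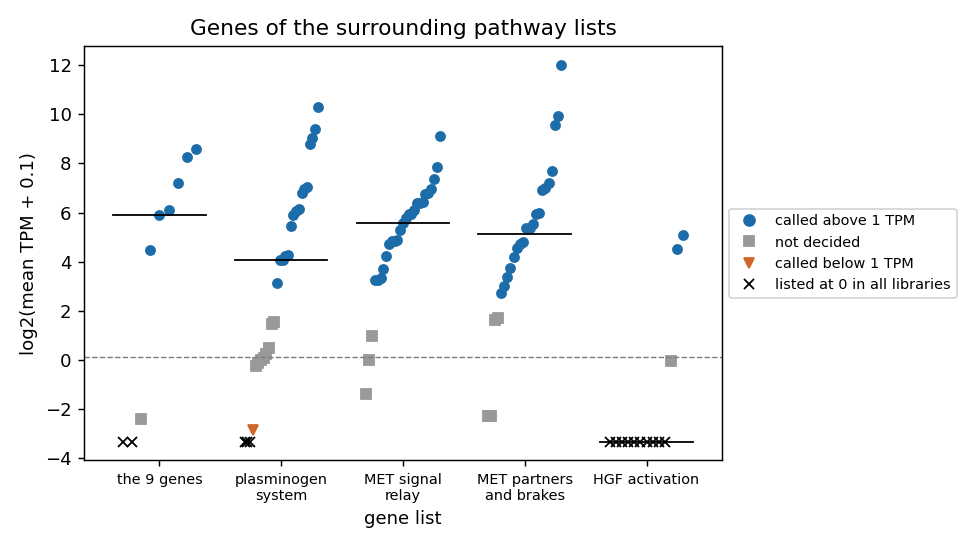
Mean level on the log2(TPM + 0.1) scale (vertical axis) of each gene of the 9 and of 4 surrounding lists, with symbols for the limma call and a black line at the median of each list. In the HGF activation list 10 of 13 genes lie at 0 and 2 are called above 1 TPM, while most genes of the MET signal relay and of the MET partners lie above 1 TPM (dashed line).

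Downstream of the receptor, most genes of the MET signal relay were present. Of 27 genes, 24 were above 1 TPM and 3 were not decided (limma, 60.8% of all genes tested above), with a list median of 47.1 TPM. Among the highest were the transcription factor gene Stat3 at 547 ± 13.6 TPM, the kinase gene Map2k1 at 230 ± 19.5 TPM, Grb2 at 165 ± 41.4 TPM and Nras at 125 ± 20.5 TPM (SD, n = 3 each). Gab3, the remaining GAB paralogue, was at 0, 2.66 and 0 TPM. These proteins serve many receptors besides MET.

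Of 24 genes for MET co-receptors, partners and brakes, 20 were above 1 TPM and 4 were not decided (limma). Of all genes tested, 60.8% were above. The list median was 34.4 TPM. The heparan sulphate proteoglycan gene Sdc4, whose sugar chains bind HGF, was at 4272, 4219 and 3915 TPM. Itgb1, an integrin subunit gene, averaged 964 ± 66.3 TPM and Cd44, whose product is a MET co-receptor, averaged 763 ± 81.8 TPM (SD, n = 3 each). Timp3, an inhibitor of the proteases that shed MET from the cell surface, averaged 208 ± 23.3 TPM, and Lrig1, which lowers MET levels, averaged 145 ± 25.1 TPM (SD, n = 3 each).

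In the rest of the plasminogen system, S100a10 and Anxa2 led and the substrate gene was listed near 0. Of its 28 further genes, 25 could be tested; 16 were above 1 TPM, 8 were not decided, 1 was called below 1 TPM and 3 stood at 0 throughout (limma), for a list median of 16.6 TPM. The 16 of 25 are close to the 60.8% of all genes tested that lay above 1 TPM. The substrate gene Plg, encoding plasminogen, was at 0.12, 0 and 0 TPM and was the one called below (limma adjusted p = 0.0316). That call was lost without any 1 of the replicates, when limma called 0 genes below 1 TPM in the whole table, also at an unadjusted p under 0.05. It was lost as well with a pseudocount of 0.01 and with a filter at a mean of 0.1 TPM. The genes Serpinf2 (antiplasmin), Cpb2 and A2m were the 3 listed at 0. Among genes of surface proteins known to bind plasminogen or its activators, S100a10 was at 1265, 1251 and 1252 TPM and its partner Anxa2 at 773, 641 and 599 TPM. The plasminogen receptor gene Plgrkt was much lower, at 25.8, 8.87 and 23.1 TPM. The intracellular serpin gene Serpinb6a averaged 446 ± 75.4 TPM and the integrin subunit gene Itgav averaged 131 ± 13.2 TPM (SD, n = 3 each).

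**Figure D4:**
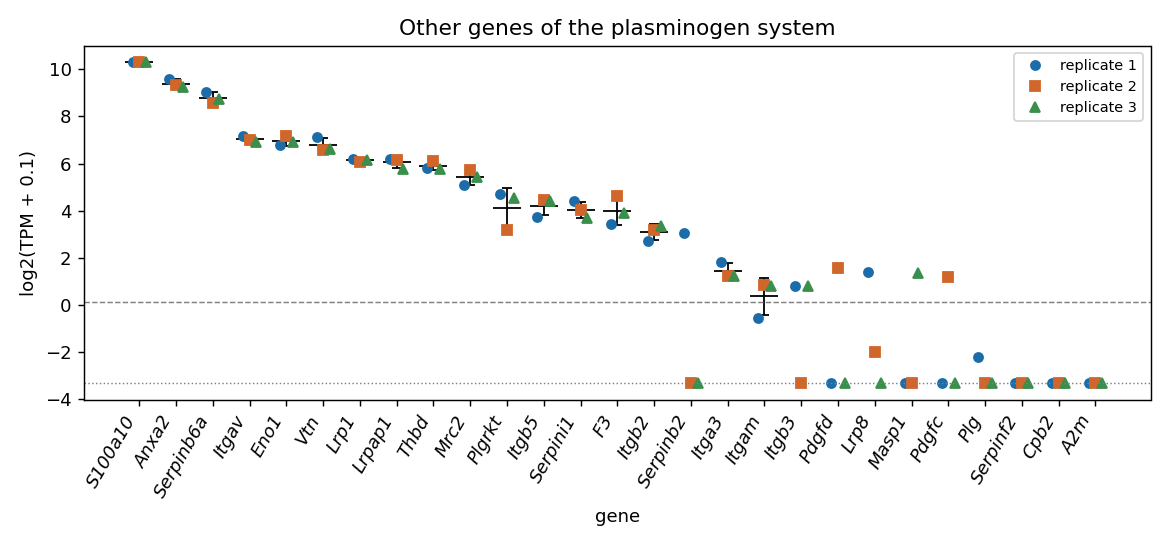
Level of 27 of the other 28 genes of the plasminogen system on the log2(TPM + 0.1) scale (vertical axis), ordered by mean TPM, with 1 symbol per library. For genes above 0 in every library a black tick and bar give the mean and SD; the dashed line marks 1 TPM and the dotted line a value of 0. S100a10 and Anxa2 lead, and Plg with the 3 genes listed at 0 stands at the low end.

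The promoter windows of members at both ends of the range are given from RefSeq (GRCm38.p6), which matched 7 of the 9 genes and did not include Plau and Plat. Each window runs from 250 bases before to 50 bases after an annotated start. Capitals mark TGANTCA, the letters of an AP-1 site, read on both strands (the motif is its own reverse complement). It occurs in 7.81% of 32851 such windows. Among the 7 genes it was found for Met, Plaur and Spint1, of which Met and Plaur were well above 1 TPM and Spint1 was listed at 0. Gab1 and Serpine2, also called above 1 TPM, had no match, and neither had Spint2. The windows of Met, Plaur and Spint1 are shown with that of Hgf, the ligand gene listed at 0, which holds no match. The Met window is chr6:17463707-17464006, the Plaur window chr7:24462233-24462532, the Spint1 window chr2:119237110-119237409 and the Hgf window, the first of its 2 starts, chr5:16553245-16553544, all on the plus strand.
Met: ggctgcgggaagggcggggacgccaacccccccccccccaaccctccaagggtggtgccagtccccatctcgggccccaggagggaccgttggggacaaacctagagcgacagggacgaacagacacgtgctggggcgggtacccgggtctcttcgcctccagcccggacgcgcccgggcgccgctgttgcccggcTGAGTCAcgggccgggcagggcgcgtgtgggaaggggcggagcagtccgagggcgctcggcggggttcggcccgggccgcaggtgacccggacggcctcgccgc
Plaur: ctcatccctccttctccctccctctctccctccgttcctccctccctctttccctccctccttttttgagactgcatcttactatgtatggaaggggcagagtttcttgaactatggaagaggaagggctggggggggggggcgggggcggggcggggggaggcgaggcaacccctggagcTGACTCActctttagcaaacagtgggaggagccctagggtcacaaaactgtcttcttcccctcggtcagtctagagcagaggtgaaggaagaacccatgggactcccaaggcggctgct
Spint1: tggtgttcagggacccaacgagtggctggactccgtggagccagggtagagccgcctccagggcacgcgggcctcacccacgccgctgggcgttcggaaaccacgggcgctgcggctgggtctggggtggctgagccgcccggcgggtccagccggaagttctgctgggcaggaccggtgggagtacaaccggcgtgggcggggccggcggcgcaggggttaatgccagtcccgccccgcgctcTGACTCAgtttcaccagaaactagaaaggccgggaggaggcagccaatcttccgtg
Hgf: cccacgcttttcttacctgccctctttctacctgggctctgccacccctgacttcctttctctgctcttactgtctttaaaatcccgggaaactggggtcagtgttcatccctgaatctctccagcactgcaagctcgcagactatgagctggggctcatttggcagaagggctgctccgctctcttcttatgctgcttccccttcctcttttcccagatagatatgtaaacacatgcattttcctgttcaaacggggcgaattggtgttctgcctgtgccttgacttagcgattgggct
The match begins 54 bases before the start in Met, 69 bases before it in Plaur and 6 bases before it in Spint1. The windows also differ in base composition, with 75.7% G and C in Met, 59.3% in Plaur, 69.7% in Spint1 and 51.3% in Hgf. The letters GGGCGG, found on either strand in 35.7% of all windows, occurred 3 times in each of Met, Plaur and Spint1 and 0 times in Hgf. None of the 4 windows holds TATAAA, which 13.6% of all windows hold. A match describes the letters of the window and shows no binding.

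The genes whose levels were most like those of 2 receptors were found by the smallest value of the largest absolute difference in log2(TPM + 0.1) over the 3 libraries. For Met they were Atf2 (largest difference 0.015), Wbp11 (0.052) and Raver1 (0.058). For Plaur they were Actr3 (0.077), Cd81 (0.09) and Gstm1 (0.16). For Hgf no gene can be named, since 7485 other genes were also listed at 0 in all libraries.

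Marker genes were read to describe the sorted cells. All 12 satellite cell markers were above 1 TPM (limma), beside 60.8% of all genes tested. The 12 include Pax7 at 56.8, 46.4 and 51.1 TPM, which the sort itself selected for. Markers of other cells of muscle were also measured. The same test called all 10 endothelial and 8 of 12 fibro-adipogenic markers above 1 TPM, so it does not show the purity of the sort. The mean list sums were 4693 TPM for satellite cells, 2146 TPM for endothelial cells and 1654 TPM for fibro-adipogenic progenitors. Of 9 leukocyte markers 4 were above 1 TPM, led by Cd74 and Lyz2 and with Ptprc at 12.2, 15.4 and 2.18 TPM. The counts above 1 TPM were 6 of 9 for mural and smooth muscle cells, 4 of 7 for Schwann cells, 5 of 6 for tendon and 5 of 9 for mature fibres, beside 60.8% of all genes tested. No undissociated muscle was measured, so levels before digestion and sorting are unknown.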

How the data were processed

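Sorted cells gave RNA through a Picopure kit, per the labels. The submitters' processing notes name CASAVA 1.8, RSEM 1.2.3, Bowtie 0.12.9 and build mm10. Settings, annotation and strand use are not stated in the sources at hand. The authors deposited TPM with 1 column per library. The columns sum to between 999999.85 and 1000000.3, no symbol starts with mt-, and the authors' name for the table says that TPM was renormalised without mitochondrial genes. Each TPM is thus relative to the genes listed, and its depth is unknown. Libraries were assigned to 1 group and numbered from their titles.

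The level test used log2(TPM + 0.1), which understates folds of low genes, and limma 3.58.1 (R 4.3.3). An intercept was fitted for each of the 12822 genes that exceeded 0 in any library and was tested, two-sided, against 1 TPM, with trended moderation and p-values adjusted across all of them by Benjamini-Hochberg (threshold 0.05); 7796 genes were called above and 279 below. The fit was tested on simulated data with genes planted at and above the threshold. That test planted no genes below the threshold and so does not cover the calls below 1 TPM. Of 13 planned gene pairs, 7 with both genes above 0 in every library are given, compared as log2 ratios within a library by a two-sided exact permutation test that flips signs, without adjustment. The 9 genes, the lists and the pairs were chosen with earlier results of these data known. Genes named are the 9, both genes of each pair, the 5 highest of each pathway list, its members at 0 or below 1 TPM, and selected markers; other genes were chosen after their values were seen. A few named by this rule are not reported here. Positions and 31-base words are from GENCODE M21 (GRCm38), whose assembly is that of mm10.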

Additional observations from a re-analysis of the deposited data

How the results depend on the processing

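The count of 6 members above 1 TPM was the same under each alternative run: pseudocounts of 0.01 and 1, a filter at a mean of 0.1 TPM, no filter, no variance trend, upper-quartile rescaling, a threshold of 10 TPM and each replicate left out. The size of their p-values depended on the setting. With no variance trend the adjusted p in limma was far larger for all 6, from 0.000477 for Plau to 0.000856 for Gab1. With any 1 replicate left out it was far smaller for all 6. For Met the limma adjusted p was then 2.57e-28, 9.1e-113 and 1.14e-53 without replicates 1, 2 and 3. Fewer libraries gave smaller values, so the size of these p-values does not measure how well the libraries agree. Spint2 was called below 1 TPM with a pseudocount of 1, with no filter and with no variance trend, and below 10 TPM (adjusted p 0.00164 to 0.027 in limma); it was not tested without replicate 1, where it was listed at 0, or with the filter at a mean of 0.1 TPM, and its adjusted p was 0.056 to 0.584 under the rest. Hgf and Spint1, listed at 0 in every library, entered only the run with no filter, where limma called both below 1 TPM. That run called 8056 of 20308 genes below. A gene listed at 0 throughout has the same value in each library, so its call there was fixed in advance. Of all genes tested, 4901 were above a threshold of 10 TPM. The 279 genes below 1 TPM became 3 with a pseudocount of 0.01, 451 with a pseudocount of 1, 478 with no variance trend, 8056 with no filter, 2245 at a threshold of 10 TPM, 0 with a filter at a mean of 0.1 TPM and 0 without any 1 replicate (limma; 0 also at an unadjusted p under 0.05 for both). The filter removes low genes by construction. The run with no filter likewise admits, by construction, the 7486 genes listed at 0 in every library. The cause of the other shifts was not tested. The mean of each of the 7 pair log2 ratios kept its sign under both pseudocounts and without each replicate. For Gab1 over Gab2 this shows no order, since the libraries fell on both sides of 0 and the mean was 0.078 without replicate 2. No paired analysis was possible because there is only 1 group. Depth is unknown, so no counting error can be given for low values.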

Other observations

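Genes of the coagulation arm beside the urokinase system were also measured, and were chosen here after their values were seen. Thbd, which encodes the thrombin receptor thrombomodulin, was at 55.6, 68.6 and 54.9 TPM in replicates 1 to 3. F3, which encodes tissue factor, was at 10.8, 24.3 and 14.7 TPM. F3 and its inhibitor gene Tfpi were both highest in replicate 2 and lowest in replicate 1, as was Plat. The receptor gene Lrp1, whose product clears complexes of plasminogen activators with their inhibitors, was even across libraries at 73.5, 66.7 and 71.2 TPM. Mrc2, whose product associates with the urokinase receptor, was at 34.4, 52.7 and 42.4 TPM.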
